A study of Mus musculus with 8 samples.

Results

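The genes described here are 6 leukocyte adhesion molecules, Vcam1, Icam1, Icam2, Selp, Sele and Mcam, chosen by symbol from the 32285 genes of the count table. They were followed across the cells of the ascending thoracic aorta of wild-type mice aged 12 ± 1 weeks, 3 in number, for which no treatment is named. The tissue had been digested with type II collagenase and elastase, depleted of dead cells and taken through droplet single-cell RNA sequencing, with antibody hashtags that carry the animals' ages. Hashtags 1, 2 and 3 stand for 11, 12 and 13 weeks in the deposited hashtag reference, and each is read here as 1 animal, so a test compares cell groups within the same 3 animals. The 4 gene expression and 4 hashtag libraries were deposited as a single matrix, in which a barcode cannot be traced to its library. No sex or strain beyond wild type is used here.

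Adhesion molecules of the vessel wall act in sequence. The selectins Selp and Sele slow leukocytes by letting them roll on the endothelium, and the immunoglobulin-family molecules Icam1, Icam2 and Vcam1 then hold them through leukocyte integrins, so that they can arrest and cross. Selp protein is stored with von Willebrand factor (Vwf) in the secretory granules of endothelial cells, Sele and Vcam1 are classically induced by inflammatory cytokines through NF-kB, and Icam2 is present on resting endothelium. Mcam (CD146) is an adhesion molecule of endothelial junctions that smooth muscle cells also carry.

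In RefSeq's GRCm38.p6 annotation, Vcam1 lies at chr3:116110020-116129688, Icam2 at chr11:106377656-106388139, Icam1 at chr9:21015940-21028814 and Mcam on the same chromosome at chr9:44134658-44142727. The selectin genes lie close together on another, with Sele at chr1:164039614-164058487 and Selp at chr1:164115264-164150026. The 200 bases before the annotated starts of 4 members are printed because the molecules differ in base composition and in a pattern of the NF-kB type there. They were read from RefSeq's promoter table (GRCm38.p6, plus strand, 5′ to 3′), and capitals mark each match to GGANNTTCC, searched on both strands. The windows are chr1:164048034-164048233 for Sele, chr9:21015740-21015939 for Icam1, chr1:164115064-164115263 for Selp and chr9:44134458-44134657 for Mcam. The Sele window lies inside the gene's annotated span, before the later start that the promoter table uses.
Sele: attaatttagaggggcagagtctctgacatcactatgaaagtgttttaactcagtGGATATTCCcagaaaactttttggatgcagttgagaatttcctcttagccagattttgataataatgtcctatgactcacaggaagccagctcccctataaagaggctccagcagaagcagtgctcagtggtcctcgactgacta
Icam1: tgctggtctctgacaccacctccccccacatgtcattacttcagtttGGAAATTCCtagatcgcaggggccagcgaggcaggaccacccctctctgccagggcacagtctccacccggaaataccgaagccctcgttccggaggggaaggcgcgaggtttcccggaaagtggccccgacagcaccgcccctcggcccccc
Selp: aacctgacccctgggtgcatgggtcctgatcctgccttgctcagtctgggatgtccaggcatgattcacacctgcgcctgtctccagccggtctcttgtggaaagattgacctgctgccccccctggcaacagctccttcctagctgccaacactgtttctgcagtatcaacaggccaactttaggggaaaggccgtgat
Mcam: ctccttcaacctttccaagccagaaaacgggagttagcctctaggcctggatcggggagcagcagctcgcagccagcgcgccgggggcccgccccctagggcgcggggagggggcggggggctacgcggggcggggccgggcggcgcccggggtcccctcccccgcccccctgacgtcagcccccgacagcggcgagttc

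The pattern GGANNTTCC was chosen after these sequences had been seen. It stood once in the Sele window, with its first base at −145, and once in the Icam1 window, at −153. Among 27025 promoters of the same length, 2.94% held it. The Selp and Mcam windows held none, which says only that these letters are not in these windows. The Sele window had a GC content of 42.5% and 1 match to TATAAA, searched on both strands, which 10.6% of the promoters held. At the other end of the range, the Mcam window had a GC content of 76.5%, against a median of 53.0% over all promoters. It held GGCGGG, searched on both strands, 4 times, and 30.9% of the promoters held that pattern at least once. The Icam1 and Selp windows had a GC content of 64.0% and 57.0%.

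Of 48467 barcodes, 9939 had at least 500 genes, at most 20% mitochondrial UMIs and fewer than 10 haemoglobin UMIs. Barcodes were sorted by marker genes into endothelial (699; at least 3 UMIs of Pecam1, Cdh5 and Gpihbp1), fibroblast (1395; Dcn at least 0.3% of UMIs), macrophage (74; at least 3 UMIs of C1qa, C1qb and C1qc) and smooth muscle cells (SMC; 6722; Acta2, Tagln and Myh11 at least 1.5% of UMIs). A further 426 barcodes that met more than 1 definition were dropped and 623 met none. The median depth was 2599 UMIs in endothelial, 4531 in fibroblast, 3044.5 in macrophage and 7315.5 in SMC barcodes. Since the defining genes fix part of any marker sum, the groups were compared on the other markers of each list. The 7 other endothelial markers summed to 3960 CPM (a group's UMIs scaled to the same total) in endothelial barcodes, against 87.8 in fibroblasts, 66.9 in macrophages, where Tie1, Tek and Vwf were at 0, and 12.0 in SMC. The 7 other fibroblast markers summed to 17750 CPM in fibroblasts and at most 878 CPM in the other groups, and the 5 other macrophage markers to 3433 CPM in macrophages and at most 9.44 CPM elsewhere. The 5 other smooth muscle markers summed to 1085 CPM in endothelial, 725 in fibroblast and 957 in macrophage barcodes, against 7439 in SMC. A single hashtag could be assigned to 74.8% of endothelial, 20.3% of fibroblast, 78.4% of macrophage and 20.9% of SMC barcodes, and the tests rest on these.

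Among the 4 groups, Icam1, Icam2, Selp, Sele and Vcam1 had their highest level over all barcodes in endothelial cells, and Mcam had its highest in SMC. In the comparison of endothelial with SMC sums, 5 of the 6 genes were frequent enough to test with edgeR's quasi-likelihood test and Benjamini-Hochberg adjustment over 8302 genes. Vcam1, Icam1, Icam2 and Selp were higher and Mcam was lower in endothelial sums, 5 calls of 5 where 51.5% of all genes tested were called. Icam2 and Selp passed the filter on low counts through the endothelial sums alone, so that a difference was built into their passing, and the count of calls is a description. Sele, with 2 UMIs in the endothelial and 0 in the SMC hashtag sums, was too sparse for a test.

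**Figure D1:**
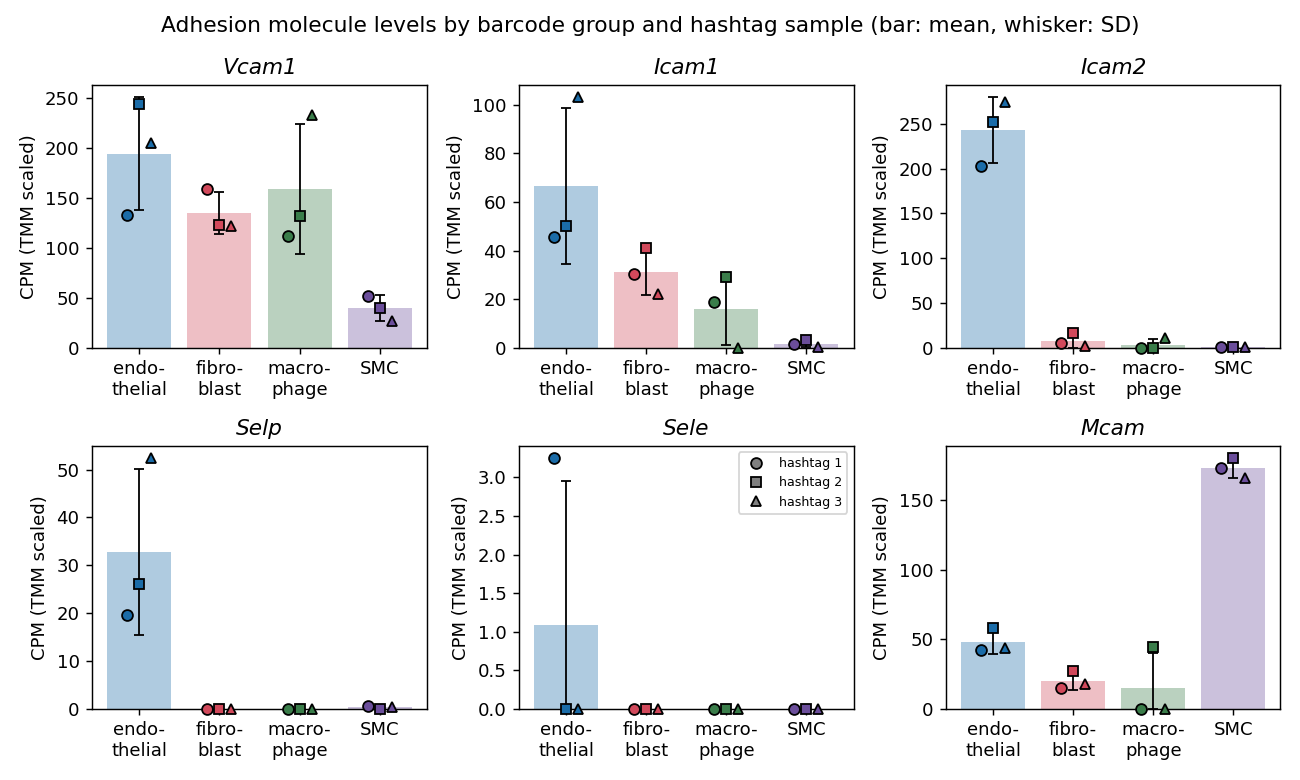
Level of each adhesion molecule in TMM-scaled CPM (linear axes starting at 0) in the 4 barcode groups. Points are the 3 hashtag samples, bars the mean and whiskers the SD (n = 3). Icam2 and Selp stand high in endothelial sums alone, Vcam1 is spread over endothelial, fibroblast and macrophage sums, and Mcam stands at 166 to 180 CPM in SMC.

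Icam2, the integrin ligand of resting endothelium, was largely an endothelial transcript. Its level was 203, 252 and 274 CPM in the endothelial sums of hashtags 1, 2 and 3, against 1.30, 1.45 and 1.44 CPM in SMC. The groups did not overlap, and the lowest endothelial sum lay far above every other group. The difference was 7.32 ± 0.23 on the log2 scale (SE; edgeR adjusted p = 2.79e-32; n = 3, higher in 3 of 3). Over all endothelial barcodes, 43.2% held an Icam2 UMI (Clopper-Pearson 95% interval 39.5 to 47.0), against 0.536% of SMC, which were sequenced more deeply. Thinned to 1000 UMIs per barcode, the shares were 19.0% and 0.0744%.

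Outside the endothelial group Icam2 was sparse. In fibroblast sums it measured 5.04, 16.5 and 2.22 CPM, each above the matching SMC sum, and the difference was 2.28 ± 0.65 (adjusted p = 0.00363, edgeR), where 38.9% of all genes were called (20.9% higher and 18.0% lower). Without hashtag 2, which holds 6 of the 10 fibroblast UMIs, that value was 1.40 (adjusted p = 0.269). In macrophage sums Icam2 was at 0, 0 and 11.1 CPM, a single UMI. Endothelial sums exceeded fibroblast sums by 5.05 ± 0.29 (adjusted p = 7.59e-21, edgeR; 5.91 without hashtag 2) and macrophage sums by 5.69 ± 0.65 (adjusted p = 3.85e-10, edgeR). Here too a difference was built into Icam2 passing the filter on low counts. Among all genes, 38.0% were called between endothelial and fibroblast sums (18.6% higher and 19.4% lower in endothelial) and 23.4% between endothelial and macrophage sums (13.8% higher and 9.59% lower in endothelial). Among barcodes of no group, those with at least 3 T cell marker UMIs held Icam2 at 37.6 CPM on 8 UMIs. A fibroblast barcode may hold up to 2 UMIs of the genes that define the endothelial group, and the part of free or endothelial RNA in the fibroblast level was not tested.

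Icam1, the cytokine-inducible partner of Icam2 in integrin binding, was also highest in endothelial sums. It measured 45.5, 50.3 and 103 CPM in endothelial sums, against 1.57, 3.26 and 0.288 CPM in SMC. Hashtag 3 was the highest endothelial and the lowest SMC sum, and the groups did not overlap. The log2 difference was 5.28 ± 0.38 (edgeR adjusted p = 2.42e-17), with 4.31 without hashtag 3 and 6.09 without hashtag 2. Fibroblast sums, at 30.2, 41.2 and 22.2 CPM, were also above SMC, by 4.18 ± 0.49 (edgeR adjusted p = 3.50e-10). Endothelial sums were above fibroblast sums by 1.09 ± 0.34 (edgeR adjusted p = 0.00809), a call that was lost without hashtag 3 (0.45, adjusted p = 0.455) and with DESeq2 (1.17, adjusted p = 0.105).

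In macrophage sums Icam1 measured 18.7, 29.3 and 0 CPM, on 3 UMIs. Endothelial minus macrophage was 2.27 ± 0.80 (edgeR adjusted p = 0.0317). The value was 1.01 (adjusted p = 0.514) without hashtag 3 and 3.53 (adjusted p = 0.00851) without hashtag 2, and DESeq2 gave an adjusted p of 0.098. Macrophage minus SMC was 3.01 ± 1.36, which did not pass (adjusted p = 0.0839, edgeR; 0.00983 with DESeq2), where 33.0% of all genes were called (14.4% higher and 18.6% lower). Shares of barcodes with an Icam1 UMI were nearly equal in endothelial (10.6%) and fibroblast (11.0%) barcodes, and also after thinning (3.00% and 2.87%). The UMIs were spread differently: 8 endothelial barcodes with at least 3 UMIs held 47.7% of the endothelial Icam1 UMIs, one of them 27, while 4 such fibroblast barcodes held 8.47%.

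**Figure D2:**
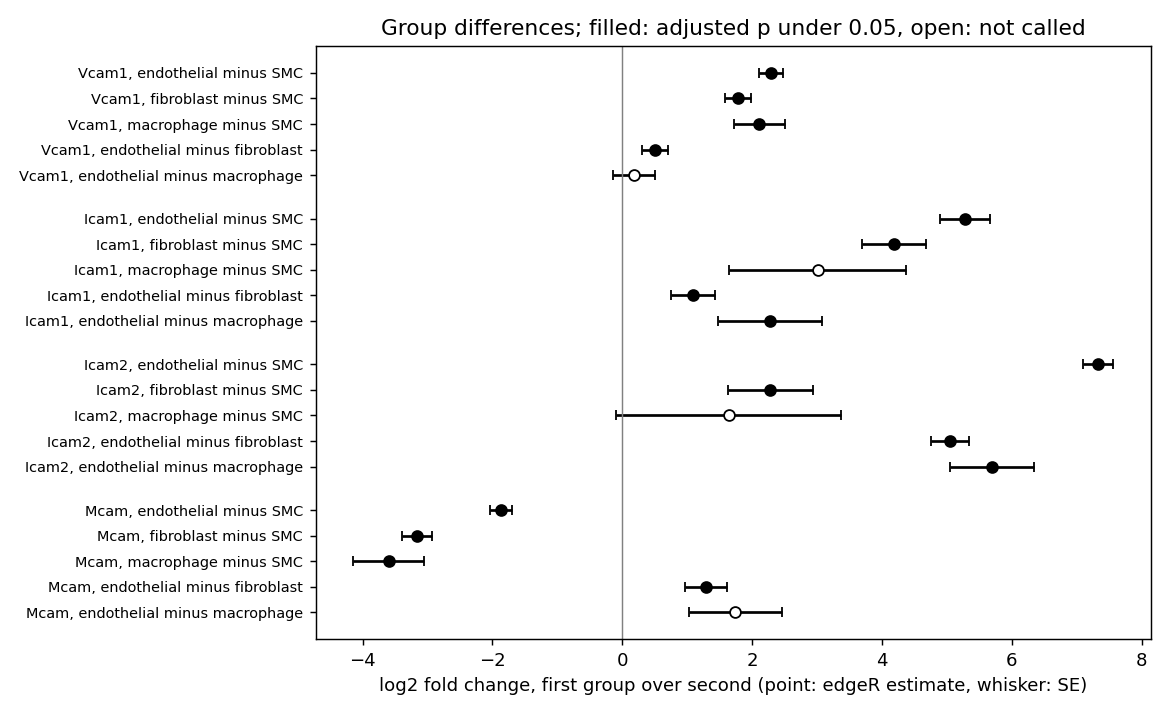
Log2 fold change with SE (edgeR) of the 4 members tested in every pair of groups shown, from 3 hashtag samples each. Filled points have an adjusted p under 0.05. Positive values are higher in the group named before "minus": Icam2 in endothelial sums lies at 7.32 over SMC, and Mcam is negative against SMC in all 3 comparisons.

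Selp, the selectin of the storage granules, was, among the 4 groups, found almost wholly in endothelial barcodes. Its 89 UMIs in 34 of 699 endothelial barcodes (4.86%) compare with 4 UMIs in 1395 fibroblast barcodes, 0 in 74 macrophage barcodes and 4 in 6722 SMC barcodes. Barcodes of no group held 9 more, 2 of them in 2 of the 53 barcodes with T cell markers. Per hashtag it measured 19.5, 26.1 and 52.4 CPM in endothelial sums, against 0.522, 0 and 0.288 CPM in SMC. All 3 endothelial sums were above all SMC sums, with hashtag 3 the highest. The fitted log2 difference was 6.32 ± 0.58 (edgeR adjusted p = 2.98e-13; 7.13 without hashtag 1), although SMC sums held only 3 UMIs, so the fold depends on the fit's prior count. Selp was not among the genes tested with the ratio hashtag caller or the mitochondrial limit of 10%. Over all barcodes the ratio of endothelial to SMC CPM was 456 (95% counting interval 172 to 1710), and that of endothelial to fibroblast CPM was 61.8 (23.3 to 232). With the barcodes of more than 1 group kept in each of their groups, Selp was at 24.5 CPM in endothelial, 2.06 CPM in fibroblast and 0.246 CPM in SMC barcodes, against 36.5, 0.592 and 0.0802 CPM without them, so both ratios rest on leaving these barcodes out.

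Endothelial sums were also called higher in Selp than fibroblast sums (edgeR adjusted p = 3.04e-07) and macrophage sums (adjusted p = 0.014, edgeR). Both of these were at 0 in all 3 hashtags, so no fitted fold is given. Selp passed the filter on low counts through the endothelial sums alone. A difference was therefore built into its passing, and both calls are a description. Over all barcodes the endothelial CPM was 3.09 times that of 3 counts over the macrophage group, with the counting error of the endothelial UMIs left out. The macrophage call was lost without hashtag 3 (adjusted p = 0.245, edgeR).

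Sele, the cytokine-induced endothelial selectin, was close to the limit of detection. It gave 7 UMIs in 4 of 699 endothelial barcodes (0.572%, Clopper-Pearson interval 0.156 to 1.46), or 2.87 CPM. Fibroblast, macrophage and SMC barcodes held 0 UMIs. For SMC, 0 of 6722 allows a share of barcodes with a UMI of up to 0.0446% (3 counts). The endothelial CPM was 47.8 times that of 3 counts over the SMC group, with the counting error of the 7 endothelial UMIs left out. For macrophages, 0 of 74 allows such a share of up to 4.05%, above the endothelial share. These limits concern barcodes with a UMI, not cells that express the gene. By hashtag the endothelial sums held 2, 0 and 0 UMIs. Each of the 4 Sele-positive endothelial barcodes also held Vcam1 and Selp. A further 9 Sele UMIs sat in 2 barcodes of no group, and 16 in the 17650 barcodes left out for haemoglobin.

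Vcam1, the ligand of the integrin formed by Itga4 and Itgb1, was spread over 3 of the 4 groups. It measured 133, 244 and 205 CPM in endothelial sums, 159, 123 and 122 CPM in fibroblast sums, 112, 132 and 233 CPM in macrophage sums, and 52.2, 40.2 and 26.8 CPM in SMC sums. SMC was lowest in every hashtag, and the other groups overlapped one another.
Against SMC, the log2 difference was 2.29 ± 0.18 for endothelial (adjusted p = 3.20e-16), 1.78 ± 0.20 for fibroblast (adjusted p = 1.03e-10) and 2.11 ± 0.39 for macrophage sums (adjusted p = 1.56e-05, all edgeR). The macrophage value was 1.37 (adjusted p = 0.0288) without hashtag 3. Endothelial minus fibroblast was 0.50 ± 0.20 (adjusted p = 0.0375, edgeR), higher in 2 of 3 hashtags. That call was lost in 4 of 9 alternatives, among them without hashtag 2 (0.30, adjusted p = 0.315) and without hashtag 3 (0.36, adjusted p = 0.187). Endothelial minus macrophage, at 0.18 ± 0.33 (adjusted p = 0.762, edgeR), and macrophage minus fibroblast, at 0.32 ± 0.35 (adjusted p = 0.562, edgeR), did not pass. Between macrophage and fibroblast sums, 26.1% of all genes were called (10.5% higher and 15.6% lower), and of the 4 members tested 0 passed with edgeR, 0 also at an unadjusted p under 0.05, and 0 with DESeq2.

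Similar averages came with different distributions of Vcam1 over barcodes. In the endothelial group 81 of 699 barcodes (11.6%) held the transcript, and 33 barcodes with at least 3 UMIs held 389 of the 446 UMIs (87.2%), up to 54 in a single barcode. In fibroblasts 438 of 1395 barcodes (31.4%) held it, and 61 barcodes with at least 3 UMIs held 43.3% of 823 UMIs. After thinning to 1000 UMIs the shares were 6.44% of endothelial, 10.5% of fibroblast, 8.11% of macrophage and 2.10% of SMC barcodes. Barcodes of no group that carried B cell markers held 0 Vcam1 UMIs in 37 barcodes, which allows a share of barcodes with a UMI of up to 8.11%, and those with T cell markers held 2 UMIs in 53. The 179 with at least 2 UMIs of the pericyte markers Kcnj8, Abcc9 and Higd1b held it at 395 CPM on 450 UMIs. Of these UMIs, 417 lay in 22 barcodes. SMC also express these markers, so they do not settle the cell type. All barcodes of no group held Vcam1 at 555 CPM.

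**Figure D3:**
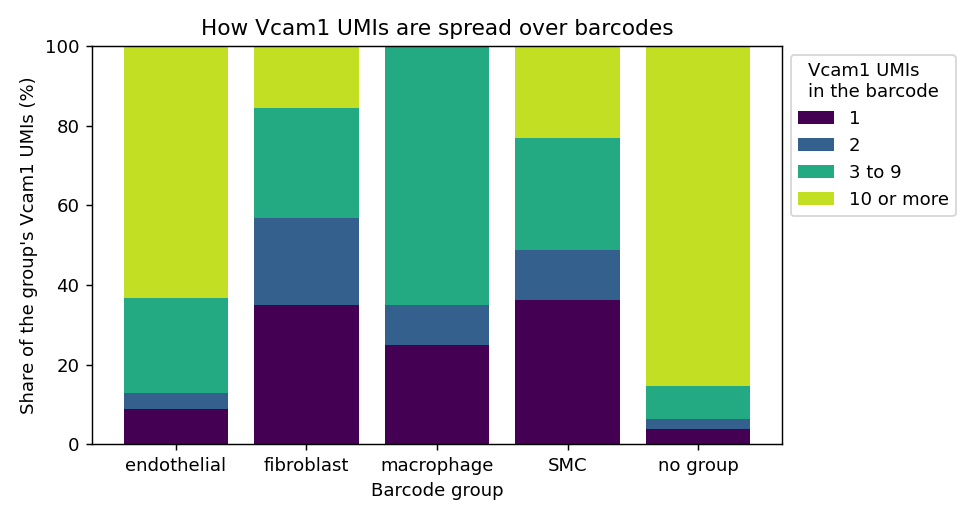
Share of each group's Vcam1 UMIs (percent, stacked to 100) that lies in barcodes with 1, 2, 3 to 9, or 10 or more Vcam1 UMIs. Barcodes with 10 or more hold 63.2% of the endothelial and 85.4% of the ungrouped UMIs, against 15.7% of the fibroblast and 23.1% of the SMC UMIs.

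Which endothelial barcodes held the transcripts was examined by Vwf, the blood-clotting protein of large vessels and veins. Vwf was detected in 77 endothelial barcodes (median 4437 UMIs) and not in 622 (median 2489.5 UMIs). The capillary markers (Gpihbp1, Fabp4, Cd36, Rgcc, Car4 and Aqp1) summed to 4905 CPM with Vwf and 37940 CPM without. The large-vessel markers (Vwf, Bmx, Fbln5, Gja5, Ackr1 and Lrg1) summed to 2109 and 199 CPM. Of the 2109 CPM, Vwf, which made the split, gave 806, and Ackr1 was at 0. The same list summed to 589 CPM in SMC and 561 CPM in fibroblasts, so its sum is not particular to endothelium. Of the members, 5 could be tested between these sums, and Vcam1, Selp and Icam2 were higher where Vwf was detected, while Icam1 and Mcam did not pass. Selp, Vcam1 and Icam1 could pass the filter on low counts only with the Vwf-detected sums, so a high level there was built into their passing. The count of calls is a description. Over all 4371 genes tested, 16.5% were called (9.20% higher and 7.32% lower).

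Vcam1 measured 852, 801 and 821 CPM in Vwf-detected sums, against 13.6, 102 and 23.6 CPM where Vwf was not detected. The ranges lay far apart in every hashtag. The log2 difference was 4.36 ± 0.39 (edgeR adjusted p = 1.27e-06), and 5.45 without hashtag 2, the highest of the sums without Vwf. A single barcode without Vwf held 35 of the 86 Vcam1 UMIs of all such barcodes. Thinned to 1000 UMIs, 39.0% of Vwf-detected and 2.41% of the other barcodes held Vcam1. The split by Vwf was itself made on all UMIs, so it still depends on depth, and the part of depth was not tested.

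Selp was at 125, 127 and 230 CPM in Vwf-detected sums, against 1.94, 0 and 0 CPM in the others. Only 1 UMI stood outside the Vwf-detected sums, and the fitted difference of 7.20 ± 0.61 (edgeR adjusted p = 8.29e-07; 8.77 without hashtag 1, 6.41 without hashtag 3 and 4.20 with the ratio hashtag caller) rests on it. With barcodes of every hashtag status the split was less extreme, at 73 UMIs with Vwf and 16 without, a CPM ratio of 20.7 (95% counting interval 12.0 to 38.2). Of those 16 UMIs, 15 lay in 2 barcodes. Selp lay mostly in barcodes with Vcam1, while most Vcam1 barcodes lacked Selp, with 30 of 81 (37.0%) holding it. Of 34 Selp-positive endothelial barcodes, 31 held Vwf, 30 held Vcam1, 27 held Bmx, a kinase gene of arterial endothelium, and 1 held the capillary gene Gpihbp1. The Selp-positive barcodes were deeper than the group, with a median of 5073.5 UMIs.

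Icam2 showed a smaller difference, with 409, 318 and 368 CPM in Vwf-detected sums, against 173, 237 and 249 CPM without Vwf. The groups did not overlap, and the log2 difference was 0.73 ± 0.22 (edgeR adjusted p = 0.0345). This call was lost in 5 of 8 alternatives, with adjusted p up to 0.284, including without hashtag 1 (0.49, adjusted p = 0.254) and without hashtag 2 (0.85, adjusted p = 0.093). Icam1 was at 125, 127 and 78.8 CPM with Vwf, against 33.0, 30.8 and 112 CPM without. Hashtag 3 ran against the others, the groups overlapped, and the difference of 0.89 ± 0.45 did not pass (edgeR adjusted p = 0.223). Without hashtag 3 it was 1.97 (adjusted p = 0.0012, edgeR). Mcam, at 79.5, 18.2 and 32.8 CPM with Vwf and 36.8, 68.6 and 47.1 CPM without, overlapped between the groups (−0.30 ± 0.51, adjusted p = 0.763, edgeR).

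**Figure D4:**
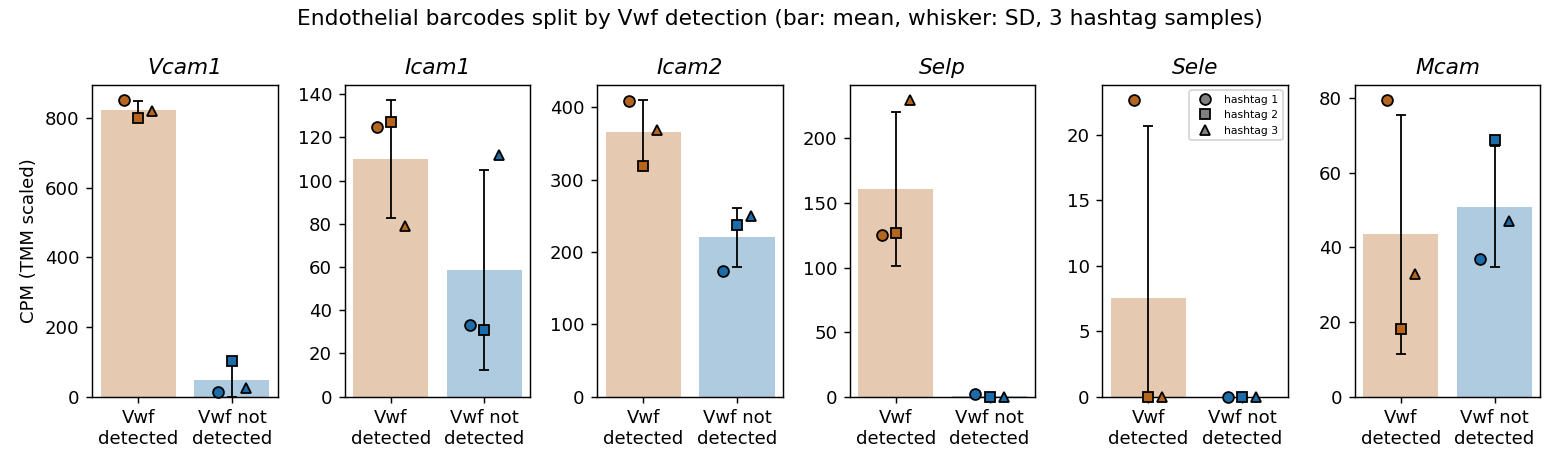
Level of each member in TMM-scaled CPM (linear axes starting at 0, a scale of its own in each panel) in endothelial barcodes with and without a Vwf UMI. Points are the 3 hashtag samples, bars the mean and whiskers the SD (n = 3). Vcam1 and Selp stand apart between the groups, while Icam1 and Mcam overlap.

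Markers of other cell types moved with this split. Fibroblast markers (8 of 8 detected in both) summed to between 1273 and 1723 CPM over hashtags with Vwf, against 492 to 654 CPM without. Lymphatic markers (6 of 6 in both) ranged from 26.1 to 1309 CPM with Vwf and from 54.7 to 241 CPM without. Platelets also store Selp, and platelet markers summed to 0 to 27.3 CPM with Vwf (4 of 6 detected, Gp1ba and Gp5 at 0) and 13.7 to 56.5 CPM without (5 of 6, Gp9 at 0). Of 12 genes induced by tissue dissociation, 11 were tested, of which 0 were higher and 5 lower with Vwf, led by Hspa1b (−2.27, edgeR adjusted p = 0.0138) and Hspa1a (−2.08, edgeR adjusted p = 0.00861), with a median of −0.79 beside −0.01 for all genes. The part of the fibroblast and lymphatic markers and of the dissociation genes in the Vwf result was not tested.

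**Figure D5:**
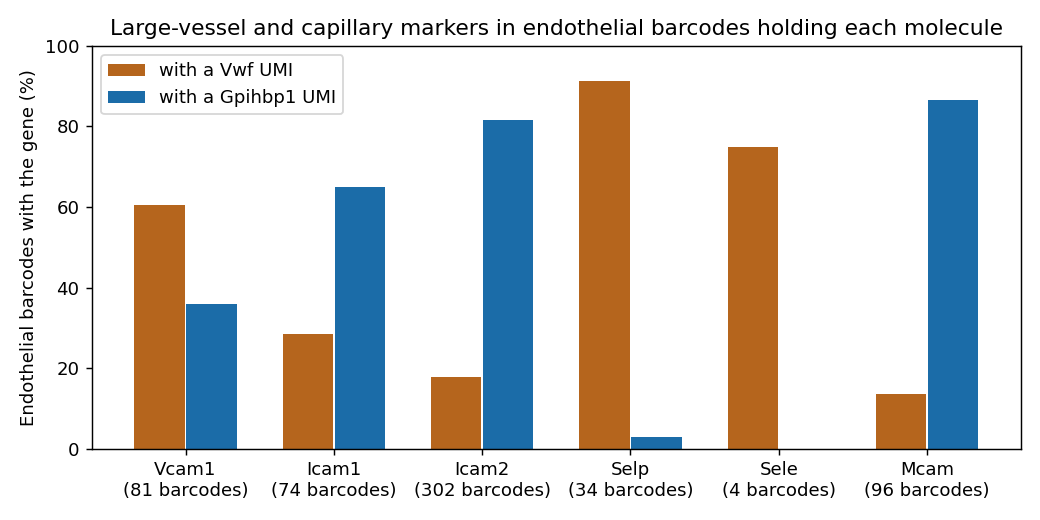
Share of the endothelial barcodes holding each member that also hold a Vwf UMI or a Gpihbp1 UMI (percent). Selp-positive barcodes held Vwf in 91.2% and Gpihbp1 in 2.94% of cases, while Icam2-positive and Mcam-positive barcodes held Gpihbp1 in 81.5% and 86.5%. For comparison, Gpihbp1, which helps define the group, was in 604 of all 699 endothelial barcodes, and Vwf in 77.

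The endothelial barcodes that held each member differed in their vessel markers, which is given as a description. Of 302 Icam2-positive barcodes, 246 held Gpihbp1 and 54 held Vwf. Of 96 Mcam-positive barcodes, 83 held Gpihbp1 and 13 held Vwf. Of 81 Vcam1-positive barcodes, 29 held Gpihbp1 and 49 held Vwf. For comparison, Gpihbp1 was in 604 of all 699 endothelial barcodes, being a gene that defines the group, and Vwf in 77. No endothelial barcode held all 6 members, 4 held 5 of them, and 316 (45.2%) held none. Detection depends on depth, which was 2489.5 UMIs in the median of Gpihbp1-positive barcodes and 4582 in that of Vcam1-positive ones.

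Among the 33 endothelial barcodes with at least 3 Vcam1 UMIs, genes that stood highest beside the 618 with none are given as a description. The cytokine-like secreted factor Cytl1 measured 4975 CPM in the 33 and 164 CPM in the 618, the Wnt inhibitor Sfrp1 927 and 21.5 CPM, the growth factor Bmp4 789 and 18.4 CPM, and the matrix phosphoprotein Spp1 466 and 1.02 CPM. Selp itself was seventh in that order, at 262 and 3.07 CPM, and Vwf ninth, at 838 and 40.4 CPM.

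Against SMC, Mcam ran opposite to the other members tested. It measured 42.2, 57.8 and 43.4 CPM in endothelial sums, against 173, 180 and 166 CPM in SMC sums, where the 3 animals were close to one another (173 ± 7.13 CPM, SD, n = 3). The log2 difference was −1.87 ± 0.17 (edgeR adjusted p = 1.02e-13). Fibroblast sums, at 15.1, 27.4 and 17.7 CPM, lay lower still, with a difference from SMC of −3.16 ± 0.23 (edgeR adjusted p = 4.21e-17). Macrophage sums were at 0, 44 and 0 CPM, 3 UMIs in a single hashtag, and differed from SMC by −3.60 ± 0.54 (edgeR adjusted p = 2.35e-07; −2.87 without hashtag 3; called too without hashtag 2, which leaves macrophages at 0 and gives no fold). Endothelial sums exceeded fibroblast sums by 1.29 ± 0.32 (edgeR adjusted p = 0.000866). Endothelial minus macrophage was 1.74 ± 0.72 and did not pass (edgeR adjusted p = 0.0765), but passed without hashtag 2 (adjusted p = 0.00799, edgeR) and without the filter on low counts (1.98, adjusted p = 0.0454, edgeR).

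Since muscle genes were detected in every group, Mcam was set beside other muscle genes as a percentage of its own SMC level. In endothelial barcodes Mcam stood at 33.0% of its SMC level, while Cnn1, Mylk, Myl9 and Lmod1, none of which defines the SMC group, stood between 12.6% (Myl9) and 18.6% (Mylk). In fibroblasts Mcam was at 10.4%, inside the range of the same genes, 7.73% (Cnn1) to 14.1% (Lmod1). In macrophages it was at 12.5%, again inside theirs, 9.89% (Myl9) to 17.0%. Barcodes with much muscle RNA had been dropped from these groups: with barcodes of more than 1 group kept, Mcam was at 83.3 CPM in endothelial, 28.1 CPM in fibroblast and 69.7 CPM in macrophage barcodes, against 157 CPM in SMC. Barcodes with B cell markers held Mcam at 23.1 CPM and those with T cell markers at 14.1 CPM, on 3 UMIs each, beside 16.4 CPM in fibroblasts and 19.7 CPM in macrophages. The 179 ungrouped barcodes with pericyte markers, genes that SMC also express, held Mcam at 76.4 CPM on 87 UMIs, in 30.7% of barcodes. The share of barcodes with an Mcam UMI was 13.7% in endothelial, 6.59% in fibroblast, 8.11% in B cell marker and 3.77% in T cell marker barcodes, against 62.9% in SMC. The part of muscle RNA in the Mcam level of the endothelial, fibroblast and macrophage groups was not tested.

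The SMC group was divided by Pln, phospholamban, the regulator of the muscle calcium pump, into 1265 barcodes with the transcript and 5457 without. Mcam measured 179, 193 and 200 CPM in Pln-detected sums, against 158, 162 and 145 CPM in the others. The groups did not overlap and all 3 hashtags were higher with Pln, but the log2 difference of 0.30 ± 0.09 did not pass adjustment over 9171 genes (edgeR adjusted p = 0.315), where 0.305% of genes were called (0.196% higher and 0.109% lower). Over all SMC barcodes, whatever their hashtag, the ratio of CPM was 1.03 (95% counting interval 0.974 to 1.09). Vcam1 was at 65.7, 20.4 and 39.5 CPM with Pln and 45.0, 41.2 and 21.7 CPM without, in overlapping ranges (0.30 ± 0.20, adjusted p = 0.838, edgeR). Icam1 and Icam2 were too sparse in SMC to be tested, and Selp and Sele held at most 3 UMIs.

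Fibroblasts divided by Pi16, a marker of adventitial progenitor-type fibroblasts, are described without a test. Vcam1 was at 99.6 CPM in 938 Pi16-detected barcodes and 175 CPM in 457 others, a ratio of 0.570 (95% counting interval 0.495 to 0.657). The shares of barcodes with a UMI were 31.2% and 31.7%, so the levels differed in the UMIs per positive barcode, 1.62 and 2.40. One barcode without Pi16 held 69 UMIs. Fibroblast barcodes with at least 3 Vcam1 UMIs were led by the monocyte chemokine Ccl2, at 175 CPM, against 3.36 CPM in fibroblast barcodes with none, and by Slpi (77.9 and 7.85 CPM) and Prg4 (532 and 104 CPM).

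Genes whose level ran most like each member over 15 sums (endothelial, fibroblast, macrophage and SMC with and without Pln, by 3 hashtags) were ranked among 9359 genes by Pearson's r of log2(CPM + 10), given as a description, since the sums share animals and groups. For Icam2 these were Clic5 (0.992), Cldn5 (0.991), the endothelial tight junction protein, and Gimap1 (0.989). For Mcam they were Spint2 (0.99), Kalrn (0.976) and Gucy1a1 (0.974), a subunit of the nitric oxide receptor. For Icam1 they were Psme2 (0.971), Klf3 (0.937) and Tmx3 (0.928). For Vcam1 they were Taf10 (0.954), the immunoproteasome subunit Psmb8 (0.948) and Ly6e (0.932), an interferon-inducible membrane protein. Between members, r was 0.73 for Icam1 with Vcam1, 0.71 for Icam1 with Icam2 and 0.57 for Icam2 with Vcam1. For Mcam it was −0.74 with Vcam1, −0.43 with Icam1 and −0.13 with Icam2. Selp, with 64 UMIs in these sums, and Sele, with 2, were not ranked.

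Partner genes of the adhesion cascade were counted in the same endothelial-SMC fit, in which 26.1% of all genes were called higher and 25.5% lower. Of 14 other junction and transmigration molecules, 11 were tested, of which 9 were higher and 2 lower in endothelial sums (median log2 difference 3.09). The highest were the sialomucin Podxl (7.49 ± 0.25, edgeR adjusted p = 4.03e-30) and the junction molecules Esam (5.73 ± 0.16, adjusted p = 5.07e-34) and Jam2 (5.66 ± 0.16, adjusted p = 1.06e-33). Alcam (−2.16 ± 0.23) and Cd99l2 (−0.74 ± 0.22) were lower. Of 8 flow-responsive endothelial regulators, 7 were higher and 1 lower (median 4.22), led by the transcription factors Sox17 (8.77 ± 0.45, with SMC at 0.121 CPM) and Gata2 (6.32 ± 0.36) and the nitric oxide synthase Nos3 (5.45 ± 0.38), with Nr2f2 lower (−0.55 ± 0.20).

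Leukocyte ligands and counter-receptors, which belong mainly on the blood cell side, were mixed. Of 12, 8 were tested, of which 2 were higher in endothelial sums, the Selp ligand Cd24a (4.91 ± 0.42) and the hyaluronan receptor Cd44 (1.29 ± 0.27). The integrin chain Itgb1 (−1.05 ± 0.10) and the Sele ligand Glg1 (−0.97 ± 0.13) were lower, and the list's median was −1.01. Of 9 cytoskeletal anchors and regulators of surface level, 5 were higher and 1 lower (median 0.69), led by Adam10 (2.36 ± 0.16) and Adam17 (1.69 ± 0.23), the proteases that shed adhesion molecules, and the cytoskeletal linker Rdx (0.91 ± 0.12). The tetraspanin Cd9 was lower (−1.12 ± 0.12). Of 14 NF-kB and cytokine genes, 11 were tested, of which 5 were higher and 1 lower (median 0.54): Irf1 (3.19 ± 0.20), the tumour necrosis factor receptor Tnfrsf1b (2.16 ± 0.56) and the NF-kB inhibitor Nfkbia (2.03 ± 0.16) led, and Il1r1 was lower (−1.13 ± 0.24). Of the 12 dissociation genes, 8 were higher and 2 lower (median 0.90), with Ier2 (1.90 ± 0.15), Jun (1.71 ± 0.14) and Hspa1a (1.55 ± 0.20) higher and Fosb (−1.46 ± 0.29) and Fos (−1.14 ± 0.20) lower. The part of these dissociation genes in the endothelial levels of Icam1 and Vcam1 was not tested.

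The lists were also counted between endothelial barcodes with and without Vwf, where 9.20% of all genes were called higher and 7.32% lower and the median of all genes was −0.01. Of the 8 flow-responsive regulators, Thbd, the thrombin receptor cofactor thrombomodulin, was higher with Vwf (206 ± 79.5 and 71.1 ± 10.4 CPM, log2 difference 1.46, edgeR adjusted p = 0.00307). The factors Klf4 (334 ± 114 and 685 ± 174 CPM, −1.06, edgeR adjusted p = 0.00582) and Klf2 (715 ± 173 and 1210 ± 112 CPM, −0.78, edgeR adjusted p = 0.00602), which restrain endothelial inflammation, were lower. The 5 NF-kB and cytokine genes tested had edgeR adjusted p from 0.11 to 0.638, with Irf1 at −0.87 ± 0.37 and Nfkbia at −0.63 ± 0.25. Of 8 junction molecules tested, 0 were higher and 3 lower, Jam3 (−2.25), Nectin2 (−1.83) and Jam2 (−1.06). Of 3 ligands tested, Cd24a was higher (2.90, edgeR adjusted p = 0.000548), and of 8 anchors and regulators, Cd9 (1.29) and Adam10 (0.94) were higher and 0 lower.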

How the data were processed

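Per the file headers, the deposited table of unnormalized UMI counts (genes and hashtags by barcode) came from Cell Ranger 6.0.1. The submitters' processing notes list mm10 as the build and Seurat 4.0.5, with no annotation version known here. IDs of 32158 of 32285 genes matched the reference names, 6 of 6 members among them. Members, lists and tests were chosen with earlier results of these data known. Barcodes were filtered and grouped by marker thresholds, and hashtags assigned with HTODemux (Seurat 5.3.0, centred log ratio per hashtag, positive quantile 0.99). No doublet caller was run: barcodes in more than 1 group left all groups, and the 1291 with several hashtags left the tests, while doublets within an animal remain. Of kept barcodes 2690 had a single hashtag, while a second caller on hashtag ratios called 3713 single. The callers differed in which barcodes were single, and the 2195 single in both were all placed on the same hashtag.

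Counts were summed per hashtag and group (at least 10 barcodes; 15 to 524 barcodes and 47739 to 4073254 UMIs per sum in the 4 groups) and tested with edgeR 4.0.16 (R 4.3.3; glmQLFit and glmQLFTest, TMM scaling, filterByExpr, hashtag as a block, since each animal gives every group), with Benjamini-Hochberg adjustment over all genes tested and calls at 0.05. The script was tested on simulated data. Without TMM the median log2 difference of all genes moved by 0.11 in endothelial minus SMC, 0.22 in macrophage minus SMC and 0.17 in macrophage minus fibroblast. A test of a gene with at most 3 UMIs in each of both groups is not given. Intervals (exact Poisson, Clopper-Pearson and conditional binomial for ratios, 95%) and floors of 3 counts cover counting error only. All 6 members are named, with the 3 genes most like each (at least 100 UMIs), and from each list up to 3 genes called in each direction in endothelial minus SMC with the largest change; the leading genes of Vcam1-rich barcodes, the genes of the other splits and the promoter pattern were chosen after their values were seen. Alternatives were DESeq2 1.42.0, no TMM, no low count filter, no block, a mitochondrial limit of 10%, at least 1000 genes, barcodes of more than 1 group kept, the other hashtag caller and leaving out each hashtag.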

Additional observations from a re-analysis of the deposited data

Results flagged for a closer look

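Barcodes that met none of the marker definitions enter no comparison, yet they held Vcam1 at 555 CPM (95% counting interval 529 to 583; 1683 UMIs in 147 of 623 barcodes), above the 183 CPM of endothelial, 122 CPM of fibroblast, 157 CPM of macrophage and 30.6 CPM of SMC barcodes. Of these UMIs, 1578 (93.8%) lay in 63 barcodes with at least 3, up to 348 in 1 barcode. In ungrouped barcodes with a single hashtag the level was 345, 184 and 224 CPM in hashtags 1, 2 and 3, with 4 barcodes of at least 3 UMIs in each, so every animal held some. These were 77, 59 and 87 barcodes, with at most 38 Vcam1 UMIs in any of them. The barcode with 348 UMIs and most of the 63 could therefore be assigned to no single hashtag. The 179 ungrouped barcodes with at least 2 pericyte marker UMIs held Vcam1 at 395 CPM, with 417 UMIs in 22 of the 63 barcodes.

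The 63 barcodes had a median of 8371 UMIs, against 3581.5 in the 476 ungrouped barcodes without Vcam1. Mgp, the matrix Gla protein, stood at 75960 CPM in the 63 and 14130 CPM in the 476, fibronectin (Fn1) at 3201 and 533 CPM, Timp1 at 813 and 19.7 CPM, and Spp1 at 580 and 4.04 CPM. The marker definitions set an upper limit on Acta2, Tagln, Myh11, Dcn, Pecam1, Cdh5 and the C1q genes in barcodes of no group. Below that limit, the 63 held Acta2 at 3665, Tagln at 3930 and Myh11 at 1151 CPM. SMC held these at 14580, 10750 and 4963 CPM, fibroblasts at 1212, 704 and 383 CPM, and all ungrouped barcodes at 3780, 3239 and 1492 CPM. Elastin (Eln) was at 2868 CPM in the 63, against 1458 CPM in SMC. The pericyte marker Kcnj8 was at 19.98 CPM in the 63, against 24.55 CPM in SMC and 46.88 CPM in fibroblasts. The SMC barcodes with at least 3 Vcam1 UMIs, 113 of 6722, had overlapping leading genes beside the 5961 with none: Spp1 (112 and 2.65 CPM), Timp1 (134 and 9.26 CPM), Fn1 (2033 and 435 CPM) and Mgp (33610 and 10190 CPM). Both Sele-positive ungrouped barcodes, with 9 UMIs, were among the 63. These values are descriptions of barcodes chosen by their Vcam1 count, with no test.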

How the results depend on the processing

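Counts of genes called moved by more than 1.5 times in these cases. With a mitochondrial limit of 10%, 2380 genes were called in endothelial minus SMC (4279 in the report's setting) and 1919 in endothelial minus fibroblast (3154). Only 4869 genes were tested under that limit, against 8302 in the report's setting, so the counts have different bases. The macrophage comparisons and the Vwf split had too few barcodes under that limit and were not run. For SMC with Pln minus SMC without, 28 genes became 8 with DESeq2, 56 with no low count filter and 43 with the ratio hashtag caller. For the Vwf split, 722 became 336 with DESeq2. Without 1 hashtag the counts ranged from 1243 to 1667 for endothelial minus macrophage (1939), 1386 to 1851 for macrophage minus fibroblast (2166), 13 to 32 for the Pln split and 435 to 765 for the Vwf split. Over all barcodes, endothelial Vcam1 was 262 CPM with the mitochondrial limit of 10% (183), and endothelial Icam2 was 155 CPM with barcodes of more than 1 group kept (237). That setting also gave Mcam 83.3 CPM in endothelial (52.1), 28.1 in fibroblast (16.4) and 69.7 in macrophage barcodes (19.7), and Icam2 7.63 in fibroblast (3.40) and 2.20 in SMC barcodes (0.762). The cause of these moves was not tested.

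The hashtag block pairs groups of the same animal. With no replicate block, 4373 genes were called in endothelial minus SMC and 771 in the Vwf split, and of the members' calls Vcam1 in endothelial minus fibroblast was lost (0.49, adjusted p = 0.0608, edgeR). No other member's call changed. Signs turned in 6 differences of those named, none called in the report's setting. Without 1 hashtag, Icam2 ranged from −3.76 to 2.10 in macrophage minus SMC, Vcam1 from −0.07 to 0.61 in endothelial minus macrophage, and in macrophage minus fibroblast Vcam1 from −0.25 to 0.60, Icam2 from −6.45 to 0.70 and Mcam from −7.28 to 0.27. The values of −3.76, −6.45 and −7.28 are fits to macrophage sums at 0, set by the prior count, and give neither a size nor a direction. Mcam in the Vwf split ranged from −1.08 to 0.26, and Mcam in macrophage minus fibroblast was 0.08 with the ratio caller. Icam1 in macrophage minus SMC passed with the ratio caller (3.39, adjusted p = 0.0375, edgeR) and without hashtag 3 (3.3, adjusted p = 0.0486, edgeR). The Vcam1 and Selp differences in the Vwf split and all 5 in endothelial minus SMC kept their call in every alternative that could be run. Low counts limit Sele in endothelial and macrophage barcodes, and Icam1, Icam2 and Selp in macrophages.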
